A study of Mus musculus with 8 samples.

Results

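A set of 38 genes of the lysosome and of autophagy was followed through the m6A peak lists of bone marrow-derived macrophages (BMDMs), out of 21866 protein-coding genes of the GENCODE M21 annotation. The members are named genes in 5 roles: 12 enzymes and other lumenal proteins, 5 membrane and lysosome-related proteins, 5 subunits of the proton pump, 3 MiT/TFE transcription factors and 13 autophagy genes. The MiT/TFE factors and the autophagy genes are grouped as 16 regulators. Each listed peak was given to the protein-coding gene whose exons it overlapped most on its own strand. A named gene stayed a member with or without a peak, but the 38 were chosen with earlier results of these data known.

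Lysosomes are acidic organelles in which hydrolases break down material that a macrophage has engulfed, and in autophagy the cell wraps its own proteins and organelles in a membrane and delivers them there. The factors TFEB, TFE3 and MITF bind the promoters of many of these genes, so the enzymes and their transcriptional regulators form a known circuit. N6-methyladenosine (m6A) is a mark on mRNA that METTL3 writes within a motif often read as GGAC, and it is known to gather in long exons and near stop codons.

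Bone marrow of C57BL/6 mice aged 8 weeks was cultured in M-CSF (40 ng/mL, 7 days) to give the BMDMs. Both genotypes carried *Mettl3* fl/fl alleles. The WT mice were Lyz2 +/+ and the KO mice Lyz2 cre/+, so that deletion depends on Cre made in myeloid cells, and the KO mice also carry Cre in place of 1 Lyz2 allele. The controls were Cre-negative littermates, and the KO samples are labelled *Mettl3*-/-. In MeRIP-Seq, RNA fragments bound by an antibody against m6A are sequenced beside input RNA, and each of the 4 lists holds the peaks of 1 mouse, called by the authors. The WT lists are WT-1 and WT-2 and the KO lists are KO-1 and KO-2, and a pair of values for a genotype gives mouse 1 first.

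The WT lists held 6159 and 6263 peaks and the KO lists 6378 and 6684, with no read counts, so the depth is unknown and the presence of a peak is the measurement. A missing peak cannot be told apart from less RNA of that gene, fewer cells of a type or a lower depth. *Mettl3* had no peak in any list, which gives no check of the genotypes. Of 8 macrophage markers 3 had a peak, with *Mertk* in all 4 lists, *Fcgr1* and *Cd14* in WT lists, and none on *Csf1r*, *Adgre1*, *Cd68*, *Itgam* or *Lyz2*. Markers of neutrophils (5), B cells (3), dendritic cells (2) and osteoclasts (2) had no peak, and of 3 T cell markers *Cd4* had 1 and 1 peaks in WT and 0 and 0 in KO. The part of other cells in the results was not tested.

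Of the 38 members 16 (42.1%) had a peak in at least 1 list, where 31.9% of all protein-coding genes did, and 22 had none. All protein-coding genes were counted, whether expressed in these cells or not. In a wider list of other genes of the same pathways, described below, 54.1% had a peak in any list. The members thus did not stand above other genes of their pathways. Members with a peak numbered 11 and 11 in the WT lists and 11 and 7 in the KO lists. Their peaks numbered 19 and 16 in WT and 17 and 11 in KO, which gives 17.5 ± 2.12 peaks for WT (mean ± SD, n = 2 mice) and 14 ± 4.24 for KO (mean ± SD, n = 2 mice). KO-2 had the fewest peaks on the members although its list was the longest, while KO-1 lay between both WT lists. Without KO replicate 2 the difference between KO and WT was -0.5 peaks, against -3.5 with it.

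A peak in all 4 lists was found on 5 members (13.2%), against 9.72% of all protein-coding genes and 13.5% of the wider list. The 5 members were *Lyst*, *Mitf*, *Rb1cc1*, *Atg16l1* and *Tecpr1*, and none is a lumenal protein or a pump subunit. A member was called lost when both WT lists and no KO list held a peak on it, and gained in the reverse case. The lost members were *Ctsz* and *Ulk2*, 12.5% of the 16 members with a peak, against 3.97% of all genes with a peak, and 0 members were gained, against 4.89% of all genes. The same 2 members were those whose peak numbers did not overlap between the genotypes, with more peaks in both WT lists. For a lost member this follows from the call, so it adds only that no other member differed in this way. Over all genes with a peak, 5.55% had more peaks in both WT lists and 7.99% more in both KO lists. A two-sided exact permutation test of peak numbers over the 6 ways to label 2 of 4 mice gave p = 0.333 for each of both genes, the smallest p this design allows. That value is also fixed by the lost call and adds nothing to it.

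**Figure D1:**
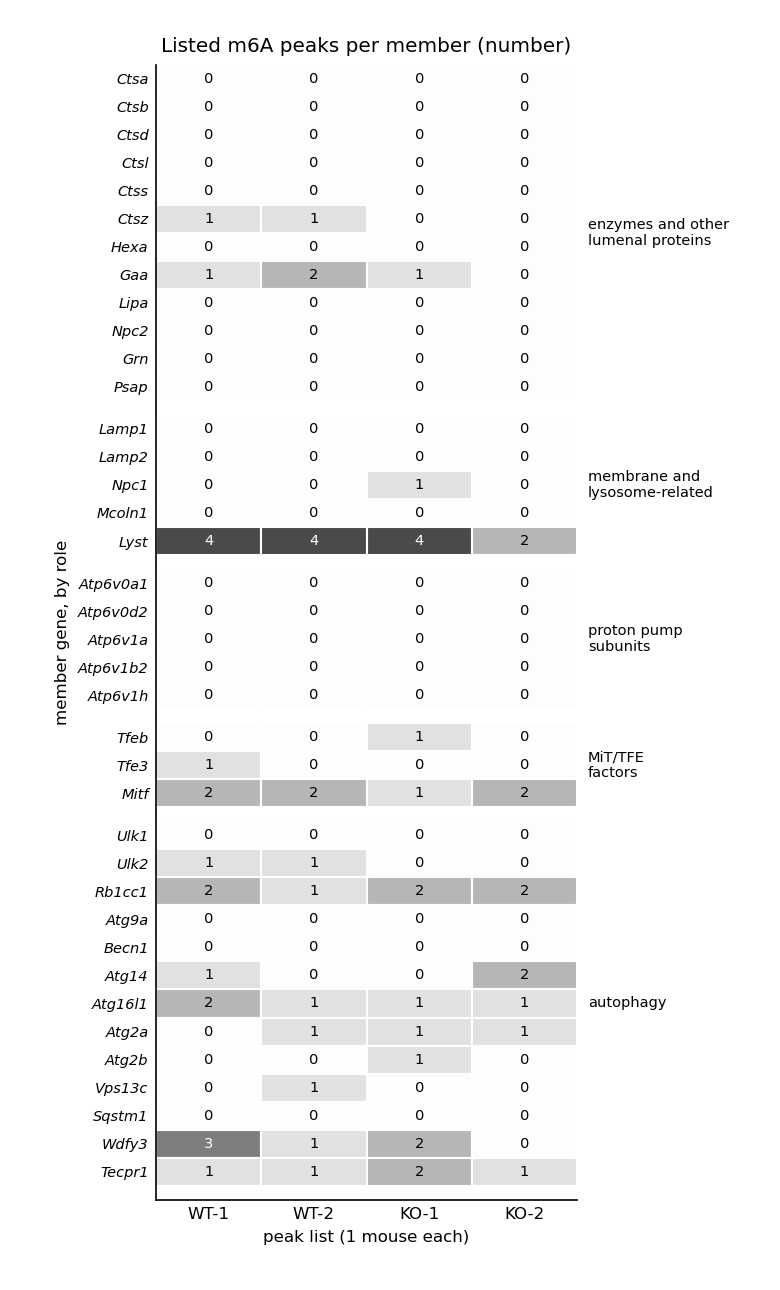
Number of listed m6A peaks on each of the 38 members (lines, grouped by role) in the 4 lists (columns, 1 mouse each), with darker cells for more peaks. *Lyst* held 4 and 4 peaks in WT and 4 and 2 in KO, the 5 pump subunits held 0 in every list, and *Ctsz* and *Ulk2* held 1 peak in each WT list and 0 in each KO list.

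Among the enzymes and other lumenal proteins, 2 of 12 had a peak in any list and 0 had one in all 4. Peaks were listed on 2 and 2 of them in WT and on 1 and 0 in KO. No peak was listed on the cathepsins *Ctsa*, *Ctsb*, *Ctsd*, *Ctsl* and *Ctss*, on *Hexa* (a subunit of the hexosaminidase that degrades gangliosides), on *Lipa* (the acid lipase of cholesteryl esters), or on *Npc2*, *Grn* and *Psap*, which encode a cholesterol carrier, progranulin and the precursor of the saposins.

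*Ctsz* encodes cathepsin Z, a carboxypeptidase of the lysosome. It had 1 and 1 peaks in WT and 0 and 0 in KO. Both WT peaks had the same ends, chr2:174427493-174427982 on the minus strand, which is the whole last exon (exon 6) with the coding end, the stop codon and 379 bases of the 3′-UTR. Both had the score 3100, the value at which most high scores of the lists stand. Of 348 regions at or above this score in both WT lists, 338 had a peak in both KO lists and 4 (1.15%) had none in either, of which *Ctsz* was 1. The reverse held for 10 of 799 regions (1.25%) at this score in both KO lists. The last exon of *Ctsz* meets an exon of *Nelfcd* on the other strand at its end, and the peaks were listed on the strand of *Ctsz*. The *Ctsz* transcript held 9.72 GGAC per kb, the highest of the 38 members, with 7 of its 14 GGAC in the last exon. Its coding bases under the peak, chr2:174427872-174427982 (GRCm38, minus strand), are shown because they end in the stop codon that the WT peaks cover, with GGAC in capitals.
Ctsz exon 6: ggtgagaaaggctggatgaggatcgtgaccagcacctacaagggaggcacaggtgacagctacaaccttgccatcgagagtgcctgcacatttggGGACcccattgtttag

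*Gaa* encodes the acid alpha-glucosidase that degrades glycogen. It had 1 and 2 peaks in WT and 1 and 0 in KO, at both ends of its mRNA. The region in exon 2 (chr11:119270090-119270678), which begins in the 5′-UTR and holds 546 coding bases, had a peak in WT-2 at score percentile 50 and in KO-1 at 48.1. A score percentile is the share of a list's peaks that score no higher, with ties at mid rank. The region in the last exon (chr11:119285071-119285611) had a peak in WT-1 at percentile 18, in WT-2 at 71.8 and in no KO list.

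The membrane proteins *Lamp1*, *Lamp2* and *Mcoln1* (a calcium channel of the lysosome) had no peak, nor had the pump subunits *Atp6v0a1*, *Atp6v0d2*, *Atp6v1a*, *Atp6v1b2* and *Atp6v1h*, which drive protons into the lysosome. *Npc1*, the exporter of cholesterol, had 1 peak, in KO-1, on exon 8 in the coding sequence (CDS). With exons of all its annotated transcripts in place of its protein-coding ones, an alternative added after the data were seen, *Lamp2* had a peak in 1 list, and no other member without a peak received one. The pump subunits thus had no peak in any list, and of 13 further genes of the same pump 2 had a peak in any list.

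*Lyst*, the lysosomal trafficking regulator whose loss gives the giant lysosomes of Chediak-Higashi syndrome, had the most peaks of the members. It had 4 and 4 in WT and 4 and 2 in KO. Its peaks lay in 5 regions, of which those in exon 5 (chr13:13634030-13636259) and exon 6 (chr13:13637368-13638376) had a peak in all 4 lists. Exon 5 with 2080 bases is its longest, and its peak stood at the score 3100 in each list. The peak of exon 6 filled the exon in each list, with scores of 3100 and 1458.41 in WT and of 3100 and 2896.63 in KO, so both genotypes had a peak at 3100 and a lower one. The region in exon 12 had a peak in 3 lists, all but KO-2, that in exon 23 in WT-2 and KO-1, and that at the stop codon in WT-1. A stretch of exon 5 common to the 4 lists, chr13:13634394-13634693 (GRCm38, plus strand), is shown for the membrane group, with GGAC in capitals. It holds 3 of the 5 GGAC in the 1904 bases common to the lists, and so is richer in GGAC than the rest of them.
Lyst exon 5: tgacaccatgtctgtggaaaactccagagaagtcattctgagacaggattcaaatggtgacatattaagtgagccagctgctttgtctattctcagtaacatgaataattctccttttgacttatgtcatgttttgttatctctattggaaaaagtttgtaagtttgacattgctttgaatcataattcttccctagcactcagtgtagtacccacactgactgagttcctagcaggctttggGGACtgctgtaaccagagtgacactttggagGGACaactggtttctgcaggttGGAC

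All 3 MiT/TFE factors had a peak in some list, and *Mitf* had peaks in all 4. *Mitf* held 2 and 2 peaks in WT and 1 and 2 in KO, all in its last exon (exon 10), which has 3576 bases. The region over its stop codon (chr6:98017774-98019279, plus strand) had score percentiles of 71.5 and 85.9 in WT and of 82.4 and 71.9 in KO. The KO values thus lay within the range of the WT values. Further into the 3′-UTR, chr6:98019692-98020527 had a peak at percentiles 81.8 and 80.3 in WT and 70.8 in KO-2, and none in KO-1. *Tfeb* had 1 peak over its stop codon in KO-1 at percentile 22.9, and *Tfe3* had 1 peak in its first exon, in the 5′-UTR, in WT-1 at percentile 56.7. The coding end of *Mitf* under the peaks of all lists, chr6:98017895-98018175 (GRCm38), is shown because it carries the recurrent peak of the transcription factors and closes with the stop codon.
Mitf exon 10: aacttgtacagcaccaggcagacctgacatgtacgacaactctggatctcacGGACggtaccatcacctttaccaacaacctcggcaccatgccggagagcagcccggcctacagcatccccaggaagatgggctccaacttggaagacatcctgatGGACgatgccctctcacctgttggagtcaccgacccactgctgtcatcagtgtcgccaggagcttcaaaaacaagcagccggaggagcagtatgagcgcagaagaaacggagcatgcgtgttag

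Of the 13 autophagy genes 9 had a peak in any list and 3 in all 4. With a peak were 6 and 7 in WT and 6 and 5 in KO, so the genotypes overlapped. *Ulk1*, *Atg9a*, *Becn1* and *Sqstm1* (the cargo receptor p62) had none. The complex that starts autophagy joins a ULK kinase to the scaffold *Rb1cc1*, and its members differed in their peaks. *Ulk2* had 1 peak in each WT list and 0 in each KO list, at chr11:61776576-61777839 (minus strand), from the last 59 coding bases into the 3′-UTR, with score percentiles of 50.6 and 33.7. In the upper 50% of each list by score, *Ulk2* was no longer lost and *Ctsz* was.

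*Rb1cc1* had 2 and 1 peaks in WT and 2 and 2 in KO. Its exon 15, an inner coding exon of 1892 bases, held a peak at the score 3100 in each list (chr1:6248276-6250167, plus strand). Exon 7 held the other peak, at percentile 55.7 in WT-1, 67.5 in KO-1 and 89.9 in KO-2 and absent from WT-2. The WT-1 value was thus the lowest of the 3. A stretch of exon 15 within all 4 peaks, chr1:6248549-6248848 (GRCm38), is shown for the autophagy genes, and it has 1 GGAC in 300 bases.
Rb1cc1 exon 15: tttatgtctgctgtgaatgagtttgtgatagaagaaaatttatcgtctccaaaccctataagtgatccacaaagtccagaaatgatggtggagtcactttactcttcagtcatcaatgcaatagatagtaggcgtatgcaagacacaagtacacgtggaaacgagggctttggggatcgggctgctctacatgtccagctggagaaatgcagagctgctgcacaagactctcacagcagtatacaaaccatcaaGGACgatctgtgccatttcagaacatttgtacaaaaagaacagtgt

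*Atg16l1* belongs to the complex that attaches lipid to LC3-family proteins on the growing membrane. It had 2 and 1 peaks in WT and 1 and 1 in KO. Its recurrent peak covered exon 5 (chr1:87766772-87767485), which has 252 bases, at score percentiles of 49.6 and 67 in WT and of 3.08 and 32.1 in KO. Both WT values thus lay above both KO values. Most of the WT peaks lay outside the exons of the longest transcript, with 462 of 714 bases in WT-1 and 428 of 645 in WT-2. *Atg16l1* was no longer among the members with a peak in all lists with equal numbers of top-scoring peaks, nor when 50% of a peak had to lie in exons, where 4 members were left in each case. Of the 5 member regions with a peak in 4 lists, 3 had both WT percentiles above both KO percentiles, against 24% of all such regions. In 2 of the 3 (*Rb1cc1* exon 15 and *Lyst* exon 5) every score was at 3100, where the ranks differ between lists only because more peaks stood at 3100 in KO lists (16.2% and 19.5%) than in WT lists (10.3% and 13.5%). Without regions at 3100 or more in any list, 1 of 2 member regions, that of *Atg16l1*, had both WT values above both KO values, against 15.2% of all such regions. Its coding bases in the shared stretch, chr1:87766841-87767057 (GRCm38, plus strand), are shown because they hold 3 GGAC in 217 bases.
Atg16l1 exon 5: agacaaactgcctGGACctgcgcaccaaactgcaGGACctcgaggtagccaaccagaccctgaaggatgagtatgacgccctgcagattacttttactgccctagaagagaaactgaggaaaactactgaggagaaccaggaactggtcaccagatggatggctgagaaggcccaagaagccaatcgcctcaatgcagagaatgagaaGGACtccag

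*Tecpr1* helps autophagosomes fuse with lysosomes, and it had a peak in all 4 lists at places that differed between the genotypes. It had 1 and 1 peaks in WT and 2 and 1 in KO. The WT peaks lay in the last exon (chr5:144194763-144196017, minus strand), at percentiles 78.3 and 54.1, and no KO list had a peak there. The KO lists had a peak on exon 10 in the CDS (chr5:144209945-144210365), at percentile 17.3 in KO-1 and 38.9 in KO-2, and no WT list had one there. The other peak of KO-1 lay on exon 3 (chr5:144217087-144217408), at the higher percentile of 59.9, and was in no other list. *Tecpr1* was therefore neither lost nor gained as a gene, while 1 of its regions was lost and 1 gained. The gained stretch, chr5:144209945-144210244 (GRCm38, minus strand), is shown because it is the gained region among the members, with GGAC in capitals.
Tecpr1 exon 10: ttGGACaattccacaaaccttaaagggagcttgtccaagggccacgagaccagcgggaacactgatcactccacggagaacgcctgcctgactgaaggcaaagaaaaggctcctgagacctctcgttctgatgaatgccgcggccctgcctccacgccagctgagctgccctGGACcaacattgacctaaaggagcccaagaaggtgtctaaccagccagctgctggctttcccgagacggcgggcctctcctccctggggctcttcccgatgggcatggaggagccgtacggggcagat

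The other autophagy genes had peaks that recurred less. *Wdfy3*, which links protein aggregates to autophagy, had 3 and 1 peaks in WT and 2 and 0 in KO, and the region over its stop codon was at percentiles 76.4 and 61.5 in WT and 57.3 in KO-1. *Atg2a*, a lipid transfer protein, had 1 peak in its last exon in WT-2, KO-1 and KO-2 at percentiles 45.3, 15.1 and 15.7, and its relative *Atg2b* had 1, in KO-1. *Vps13c*, also a lipid transfer protein, had 1 peak, in WT-2. *Atg14*, a subunit of the lipid kinase complex of autophagy, had 1 peak in WT-1 and 2 in KO-2. Exons of antisense genes lie under a peak of *Atg14* and a peak of *Wdfy3*, and both peaks were listed on the members' strand.

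**Figure D2:**
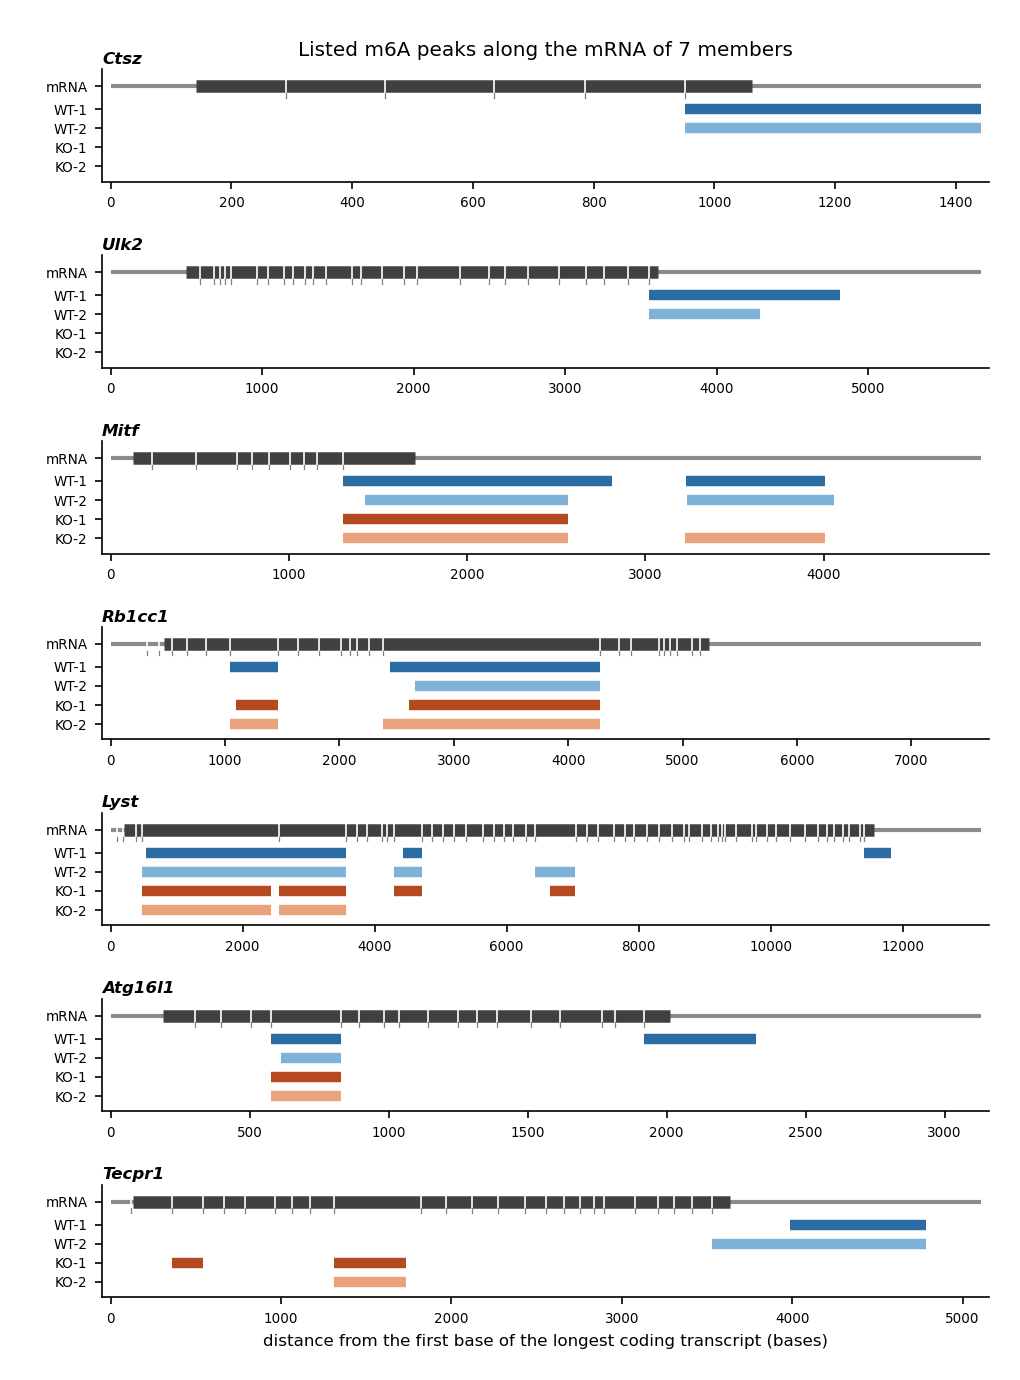
Listed peaks of 7 members along the longest coding transcript, with distance from its first base in bases on the horizontal axis, the CDS as a thick dark bar cut at exon borders, and 1 line of peaks per list. The *Ctsz*, *Ulk2* and *Tecpr1* peaks in the last exon were in WT lists, and the long inner exons of *Rb1cc1* and *Lyst* carried a peak in each list.

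Merging same-strand peaks that shared 1 bp or more across lists gave 30 regions on members out of 12350. Of these, 12 were in 1 list, 8 in 2, 5 in 3 and 5 in 4 lists. The share in 4 lists was 16.7% on members and 17.8% over all regions. Lost regions numbered 4 of 30 on members (*Ctsz*, *Ulk2*, and the last exons of *Gaa* and *Tecpr1*), against 3.32% of all regions. All 4 lie in the last exon of their gene and 3 reach over the stop codon, on *Tecpr1* by the WT-2 peak alone. The places of all lost regions were not counted. Over all genes 49.3% and 51.4% of placed peaks in WT had their midpoint in the 3′-UTR. The gained region was 1 of 30, on *Tecpr1*, against 6.19% of all regions.

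Peaks were then placed by their midpoint on the longest coding transcript, which was possible for 61 of the 63 member peaks. Midpoints in the CDS made up 33.3% (6 of 18) and 46.7% (7 of 15) of member peaks in WT, and 76.5% (13 of 17) and 63.6% (7 of 11) in KO. Midpoints in the 3′-UTR numbered 10 and 8 in WT and 4 and 4 in KO. Both KO lists thus had the higher CDS shares and fewer 3′-UTR peaks on members. This is no separate result from the lost regions on *Ctsz*, *Ulk2*, *Gaa* and *Tecpr1*. Each of those gave 1 of the 3′-UTR midpoints in each WT list. The peaks without a place, 1 in each WT list, were those on *Atg16l1* exon 5. The KO peaks of that region counted as CDS, which lowers the WT shares alone. Over all genes the CDS share was 47% and 45.4% in WT and 52.2% and 50% in KO, where the KO values were also the higher ones, by less. The 3′-UTR share over all genes was 49.3% and 51.4% in WT and 43.1% and 46.4% in KO. The mean of the 4 member shares was 55%, and it ran from 47.9% to 62.3% with each list left out.

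Regulators were compared with enzymes in each list. The share of genes with a peak was 50% of regulators and 16.7% of enzymes in WT-1 and in WT-2, 50% and 8.33% in KO-1, and 37.5% and 0% in KO-2. The regulators were therefore 33.3 and 33.3 percentage points above the enzymes in WT and 41.7 and 37.5 in KO, or 36.5 ± 3.99 points over the lists (mean ± SD, n = 4). The 4 lists gave the same direction, but they sample the same 28 genes, so their spread says nothing of other genes. In the same lists 19% to 20.3% of all protein-coding genes had a peak, between the shares of both groups.

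A wider list of other genes of the same pathways, also drawn up with earlier results of these data known, did not show this distance. Of 34 other enzymes 20 (58.8%) had a peak in any list, and of 38 other autophagy genes 23 (60.5%) had. Per list the other enzymes with a peak numbered 11 and 15 in WT and 7 and 9 in KO, and the other autophagy genes 13 and 14 in WT and 13 and 13 in KO. The difference between other autophagy genes and other enzymes was 1.86 and -7.28 percentage points in WT and 13.6 and 7.74 in KO, with a mean of 3.99. The few peaks on enzymes therefore held for the 12 members and not for the further enzymes counted here. The other enzymes had fewer genes with a peak in both KO lists than in either WT list, while the other autophagy genes did not. Over all protein-coding genes 4164 and 4346 had a peak in WT and 4176 and 4435 in KO. Of the wider list 34 and 42 genes had a peak in WT and 24 and 33 in KO, and 60 (54.1%) had one in any list. Of the 60 genes with a peak 4 (6.67%) were lost, against 3.97% of all genes with a peak. They included *Scarb2* and *Tmem192*, which encode proteins of the lysosomal membrane, and *Flcn*, which encodes folliculin, a regulator of the MiT/TFE factors. In the reverse case 1 gene was gained (*Atg4c*, 1.67%), against 4.89% of all genes with a peak.

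**Figure D3:**
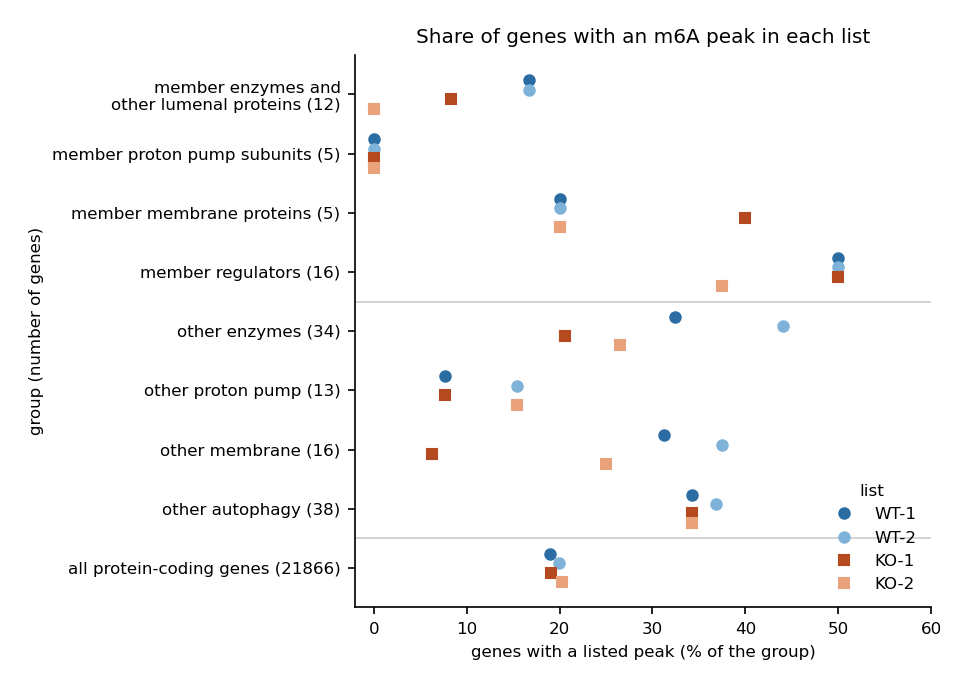
Share of genes with a listed peak in each list (horizontal axis, percent of the group), for member groups, for further genes of the same pathways and for all 21866 genes (circles WT, squares KO). Member regulators lie between 37.5% and 50% and member enzymes between 0% and 16.7%, while the other enzymes and other autophagy genes lie between 20.6% and 44.1%.

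Transcript lengths, taken from the longest annotated coding transcript of each gene, differed between the groups. The median mRNA was 2813 bases in the enzymes, 2825 in the pump subunits, 4993.5 in the regulators and 2683 over all genes, and genes with a peak in all 4 lists had a median of 4732. Below 2 kb a peak in any list was found on 1 of 3 enzymes and 13.3% of all genes, with 0 regulators of that length. Between 2 and 4 kb it was found on 1 of 7 enzymes, 4 of 5 regulators and 34.5% of all genes. Between 4 and 6 kb it was found on 0 of 1 enzyme, 3 of 6 regulators and 48.5% of all genes. Above 6 kb it was found on 0 of 1 enzyme, 5 of 5 regulators and 57.1% of all genes. That enzyme is *Ctsl*, whose longest annotated transcript has 1005 coding bases and a 3′-UTR of 4761. Whether these cells make that transcript was not tested. With 1 enzyme in each of the upper bins, the part of length in the distance was not tested.

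Listed peaks were at least 300 bp wide, 96.3% to 97.8% of the assigned ones touched an exon of 300 bp or more, and 44.3% to 53.4% had an end at an exon border. An inner exon (neither first nor last) of 300 bp or more was present in 1 of 12 enzymes (*Gaa*), 0 of 5 pump subunits, 7 of 16 regulators and 23.4% of all genes. Of the 10 members with such an exon 9 had a peak, all but *Atg9a*, and of the 28 without it 7 had. Over all genes these shares were 46.8% and 27.3%. A peak anywhere on the gene counted here, and those of *Tfe3* (first exon) and *Atg14* (last exon) lay on no inner exon. *Npc1*, *Tfe3* and *Vps13c* each had a peak in 1 list only. Among members with such an exon, 6 of 7 regulators had a peak and 3 of 3 other members (*Gaa*, *Npc1* and *Lyst*). Among members without it, 6 of 9 regulators had a peak and 1 of 19 other members, which was *Ctsz*. The part of exon length in the distance between regulators and enzymes was not tested further.

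**Figure D4:**
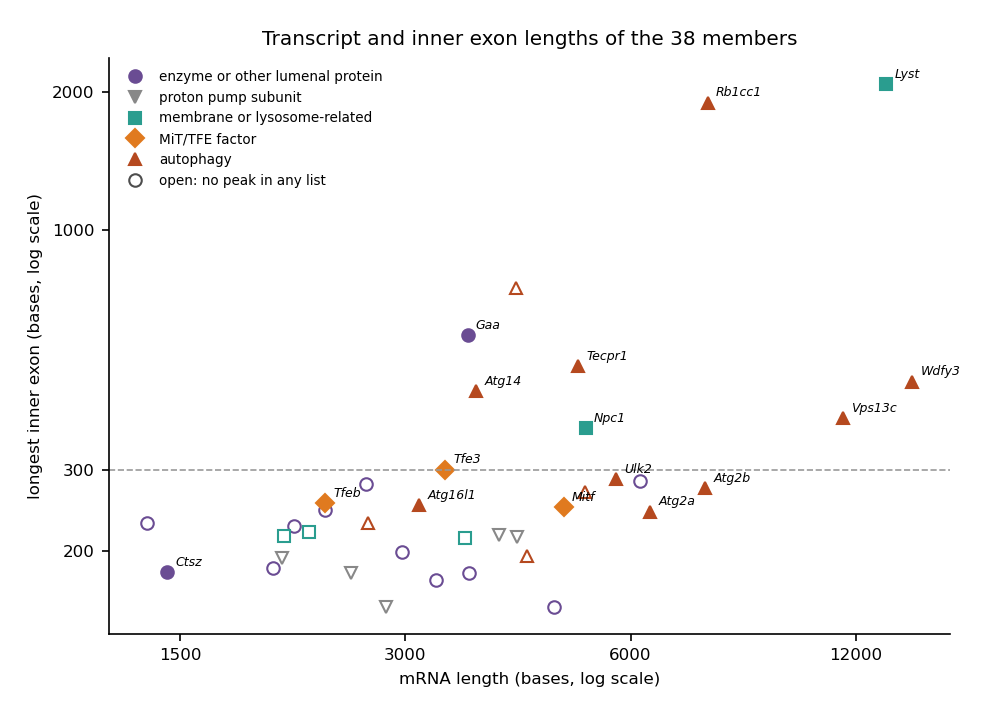
Longest inner exon against mRNA length of the 38 members (both axes in bases, log scale), with filled symbols for a peak in any list, open symbols for none, shapes for roles and a dashed line at 300 bases. Above the line 9 of 10 members had a peak, on an inner exon or elsewhere, and below it the filled symbols are regulators apart from *Ctsz*.

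GGAC was searched on the transcript strand of the member cores, the stretches common to the peaks of all 4 lists. The 5 cores held 14 GGAC in 5888 bases, or 2.38 per kb, and the rest of the same 4 transcripts held 82 in 22911 bases, or 3.58 per kb, a ratio of 0.664 (95% exact interval 0.348 to 1.18, covering counting error only). Over the cores of all genes the ratio was 1.49, from 5.43 and 3.65 per kb. The member cores thus did not share the higher GGAC density of cores in general. The long exons carried this value, since *Rb1cc1* exon 15 had 1.24 GGAC per kb, *Lyst* exon 5 had 2.63 and *Lyst* exon 6 had 0, as had 9.51% of 1682 cores over all genes. *Mitf* exon 10 had 3.51 per kb and *Atg16l1* exon 5 had 13.8, against a median of 5.1 over all cores. With the looser motif DRACH (A, G or T, then A or G, then AC, then A, C or T) the ratio was 1.06 on members and 1.22 over all genes. A motif in a core is a run of letters and not a measured site.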

How the data were processed

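BMDMs of 2 WT and 2 KO mice gave 8 libraries, an m6A IP and an input per mouse, made with a directional kit. The deposited lists give for each peak a position, a strand and a score, which the authors' peak caller made against the input of the same mouse, without pooling. Peak names have the form of MACS; the caller, its version and its settings are not given in the sources used here. The submitters' processing notes name cutadapt 1.9.3, HISAT2 2.0.4 and the build mm10 (GRCm38). Scores depend on depth, so they were ranked within a list only.

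BED starts were raised by 1 base. Peaks were assigned by exons of protein-coding transcripts (GENCODE M21), by the largest same-strand overlap of at least 1 bp. Every member is given by its peaks per list, and those with a peak in all 4 lists, lost or gained are described by position; other pathway genes are named only where lost or gained, and not every such gene is reported here. The members and lists were chosen with earlier results of these data known. Replicates are separate mice. Peak numbers were tested by exact permutation over the lists (two-sided), and no count model could be used. Where depth is unknown no interval per library was made. 0 other columns of per-sample values were left out. As alternatives served the upper 50% of each list by score, equal numbers of peaks, other gene and exon assignments, merging within 100 bp, a reciprocal overlap of 50%, other groupings, a replicate block and each list left out. As a check of the code, peaks were planted inside the longest exon of 2000 genes. Of these, the 1980 whose peaks touched no other gene were scored, and 100% were recovered. Peaks that reach into introns or several genes were not simulated. Python 3.11.15, numpy 2.4.6, scipy 1.17.1 and matplotlib 3.10.9 were used. Sequences were read from the GRCm38 assembly of RefSeq by coordinates, where the transcripts of all 38 members were found letter for letter.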

Additional observations from a re-analysis of the deposited data

How the results depend on the processing

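Of 72 alternative values, 58 stayed within 1.5 times a count or within 1 SD of a value. In the upper 50% of each list by score, 3 members (*Lyst*, *Mitf* and *Rb1cc1*) had a peak in all lists in place of 5, 1 was lost in place of 2, the members with a peak differed by -4 between KO and WT in place of -2, and regulators stood 23.4 points above enzymes in place of 36.5. This setting holds fewer peaks by construction. With the further enzymes and autophagy genes, an alternative added after the data were seen, the distance was 3.99 points. Without regions at the score 3100, also added later, 1 member region ranked higher in WT in place of 3. With DRACH in place of GGAC the ratio of cores to the rest was 1.06 in place of 0.664, and the cause was not tested.

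The replicate block called 6 members lost (against 2) and 4 gained (against 0), where 28.5% and 29.1% of all genes with a peak were called. It asks for a single pair and so calls more by construction. The difference between WT-1 and WT-2 and that between KO-1 and KO-2 correlated at 0.0073 over 12350 regions. This is a description, and 6101 of these regions had a peak in 1 list only. Whether mice with the same replicate number share a batch was not tested.

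With each list left out in turn, lost members ran from 2 to 4, with *Ctsz* and *Ulk2* among them each time, and gained members from 0 to 3. Over all genes with a peak the same settings called 7.23% to 15.7% lost and 10.9% to 13.4% gained, more than with all lists. *Gaa* and *Wdfy3* joined the lost ones without KO replicate 1, *Vps13c* without WT replicate 1 and *Tfe3* without WT replicate 2. *Npc1*, *Tfeb* and *Atg2b* joined the gained ones without KO replicate 2, and *Atg2a* those without WT replicate 2. Members with a peak in all remaining lists ran from 5 to 7. The difference in members with a peak ran from -4 (without KO replicate 1) to 0 (without KO replicate 2), that in member peaks from -6.5 to -0.5, and the distance between regulators and enzymes from 34.7 to 37.5 points. With 2 lists per genotype and unknown depth, an absent peak is no measured level of 0.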
